A study of Macaca mulatta with 20 samples.

Results

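The cerebral cortex was read against 4 other sources of rhesus macaque RNA across all genes, with the cortex samples taken by their tissue label and not by any measured value. They are 4 of the 20 arrays of the series, 2 of the 10 Rhesus Macaque Genome Arrays (the rhesus chip, numbered 1 and 2 for each source) and 2 of the 10 Human Genome U133 Plus 2.0 arrays (the human chip, numbered 3 and 4). The comparison on each array type had 2 arrays each of thymus, testis, pancreas and fibroblasts, the last an immortalized culture of connective tissue cells. The labels give no treatment, genotype, age or number of animals for any source, and number the arrays of a source as technical replicates. A p-value here therefore measures the spread between arrays and compares RNA preparations, not animals. In such bulk RNA, fewer cells of a type and less RNA per cell cannot be told apart.

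The cerebral cortex is built of excitatory neurons, which use glutamate, inhibitory interneurons, which use GABA, and glia that insulate axons, clear transmitter and guard the tissue. Neurons set their membrane voltage with ion channels and pumps, release transmitters and peptides, and depend on a steady supply of ATP. Nearly all of them have left the cell cycle, and the space between them is filled by proteoglycans and hyaluronan rather than by fibrillar collagen.

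The deposited values are log2 levels, 1 per probe set and array, and the 2 arrays per source limit the precision. Each gene was read from the probe set with the highest mean level, and a difference is the cortex mean minus the mean of the 4 other source means. A gene was called higher or lower in cortex at a Benjamini-Hochberg adjusted p below 0.05 (limma) with a difference of at least 1 on the log2 scale. On the rhesus chip 2348 of 14132 genes were higher in cortex (16.6%) and 2985 were lower (21.1%). On the human chip 2183 of 19775 genes were higher (11.0%) and 1975 were lower (9.99%). Where 2 values are given below without naming the arrays, the first is from the rhesus and the second from the human chip. The median difference over all genes was -0.12 on the rhesus chip and -0.038 on the human chip. Of the calls 44.0% were higher on the rhesus and 52.5% on the human chip. With levels set by spiked bacterial control transcripts these shares were 52.5% and 64.1%, and the medians over all genes were 0.09 and 0.21. On the human chip the share was 47.4% with quantile normalization and 45.8% without the pancreas arrays. Which direction held more genes on each chip thus depended on the scale or on the sources compared. The sign of both medians also depended on the scale. Large differences lay mostly on 1 side. A difference of 6 or more was reached by 200 higher but 6 lower genes on the rhesus chip, and by 172 higher but 5 lower genes on the human chip. To be lower by 6, a gene needs a high mean over all 4 other sources, while a gene high in cortex alone needs none of them. No other source was read in this way, so the skew is not shown to be particular to cortex.

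Since a mean over 4 sources can be set by 1 of them, cortex was also tested against each source. Cortex was above each of the other sources for 1304 genes on the rhesus chip (9.23% of genes) and 1261 on the human chip (6.38%), and below each for 676 (4.78%) and 408 (2.06%). Of the 11956 genes on both array types, 652 were above and 219 below each source on both. The source next to cortex among the genes above each was most often pancreas, for 524 genes on the rhesus and 506 on the human chip, and least often thymus, for 159 and 147. The pancreas arrays had the highest medians over all probe sets, 3.53 and 3.49 on the rhesus and 3.05 and 3.05 on the human chip. Cortex had 3.31 and 3.31, and 2.93 and 2.95. For a gene near the floor outside cortex, being the next source does not show expression there. Pancreas was also the next lowest source for 271 and 184 of the genes below each. The pancreas arrays had the fewest genes at a level of 6 or more, 5349 against 6058 in cortex on the rhesus chip and 4305 against 5306 on the human chip. Their spiked bacterial controls averaged 11.15 against 10.07 in cortex, and 11.38 against 10.30. The 3' probe set of the actin control stood 4.58 above the 5' one in pancreas and 2.13 in cortex on the rhesus chip, and 2.40 and 2.03 on the human chip. Without the pancreas arrays the genes below each of the other 3 sources numbered 1236 and 823. With levels set by the spiked controls instead they numbered 338 and 144. Leaving out pancreas removes 1 of the 4 tests, and no other source was left out in this way. The count of genes below each thus depended on the scale, while the count above each was 1247 and 1260 with the spiked controls. Without pancreas the count above each was 1450 and 1348.

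A gene was read from its brightest probe set, and the choice weighed on the size of the differences. Taking each gene as the mean over all its probe sets, 24 of the 404 called readings of the genes named here (1 reading per gene and array type) lost the call and 6 changed direction, while 25.5% kept the call but moved by over 1.5 times.

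Genes are described in lists by role, and the shares of all genes given above stand beside the share of each list that was called. The shares are of each array type by itself, and the genes called need not be the same on both. Of the genes measured on both types, 5 of 7 sodium channels but 4 of 18 transmitter receptors coupled to G proteins were higher on both. Over all genes it was 1219 of 11956. The lists were chosen with earlier results of these data known, so a list share above that of all genes describes the list and is not a test. Bacterial control transcripts that were not added averaged 2.13 to 3.12 on the rhesus and 2.14 to 3.12 on the human chip. Where cortex or the other sources lie that low, the difference is not an exact fold.

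**Figure D1:**
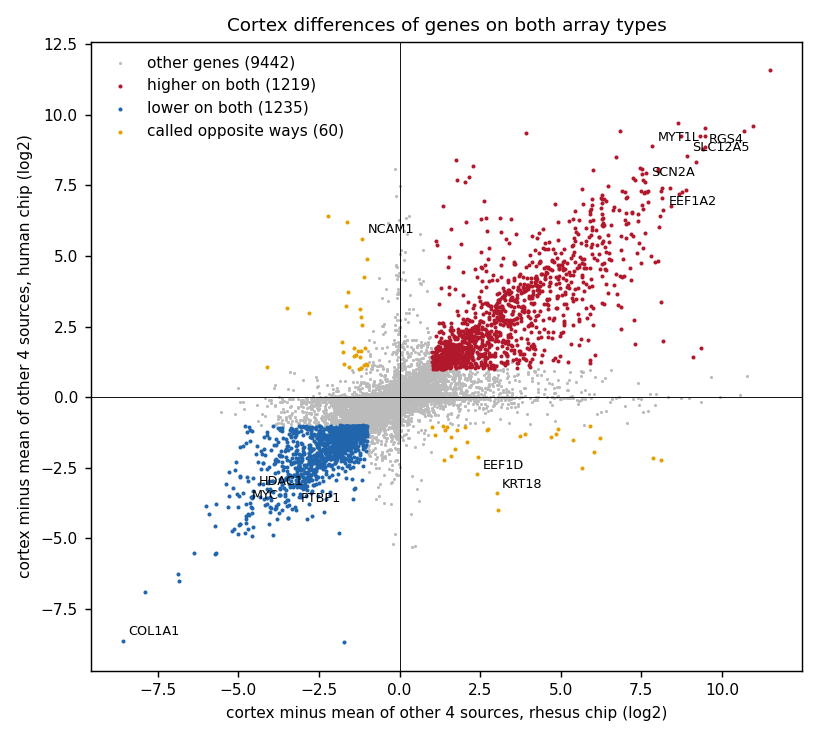
Difference between cortex and the mean of the other 4 sources (log2) on the rhesus chip (horizontal) and on the human chip (vertical), 1 point for each of the 11956 genes on both. The 1219 genes called higher on both types reach past 10 on each axis, while the 1235 called lower on both mostly lie above -6, and 60 genes were called opposite ways.

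The label was checked against cortex markers. All 9 cortex markers measured on the rhesus chip and 11 of 13 on the human chip were higher in cortex, among them NRGN, GAD1, SLC1A2 and GPM6A. The exceptions were OLIG2, a transcription factor of oligodendrocytes, at 0.036, and MBP, a protein of the myelin sheath, at 0.75, both on the human chip only, against 4.90 and 10.78 on the rhesus chip. MBP was called there with the mean of all its probe sets, at 1.61, and without the pancreas arrays, at 1.02, while OLIG2 stayed uncalled under both, at 0.063 and 0.043.

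Voltage-gated sodium channels carry the upstroke of the action potential, and the channel types known from brain were higher in cortex. Of the listed genes 5 of 7 on the rhesus and 7 of 10 on the human chip were higher in cortex, 0 were lower, and the median differences were 5.59 and 4.77. SCN2A, the channel of the axon initial segment, stood at 11.93 and 11.92 on the cortex arrays and between 2.48 and 6.43 (median 4.18) on the other 8 rhesus arrays. On the human chip it stood at 11.28 and 10.97 against 2.20 to 5.28 (median 3.19). The groups did not overlap, and the differences were 7.63 ± 0.078 (SE, adjusted p = 4.7e-09, limma) and 7.63 ± 0.18 (adjusted p = 6.51e-07). Fibroblasts came next, with means of 6.32 and 5.09, and pancreas and thymus lay at the level of the unspiked controls. SCN1A, SCN3A and SCN8A, the other brain pore-forming subunits listed, differed by 5.92, 5.42 and 5.59 on the rhesus and by 4.56, 5.14 and 4.97 on the human chip. The auxiliary subunit genes SCN3B (8.04 and 6.02) and SCN2B (7.44, human arrays) followed them. By contrast SCN4A, the skeletal muscle channel, averaged 2.13 and 2.56 in cortex, and SCN9A, known from sensory neurons, 2.06 and 3.23, neither of them called on either array type.

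Calcium channels let calcium in at synapses and dendrites. Of the list 9 of 11 genes on the rhesus and 15 of 17 on the human chip were higher in cortex, with none lower and median differences of 3.16 and 3.60. CACNA1B, the N-type channel that triggers transmitter release, read 11.25 and 11.29 in cortex against 4.04 to 5.19 (median 4.41) elsewhere on the rhesus chip, and 8.85 and 8.46 against 2.69 to 3.66 (median 2.87) on the human chip. Cortex was clear of every other array, with differences of 6.86 ± 0.17 and 5.71 ± 0.19. The P/Q-type channel CACNA1A, present on the human chip, differed by 3.93 and was at 8.31 in pancreas. Auxiliary subunits were higher too, including CACNA2D1 at 4.25 and 4.12, and CACNG2, which also escorts AMPA receptors to the synapse, at 4.87 and 3.60. The exception among the low-voltage types was CACNA1H, at 3.02 in cortex on the human chip with a difference of -0.097. Calcium release channels of the endoplasmic reticulum were next highest in testis. RYR2 read 10.31 and 10.45 in cortex with a testis mean of 6.82 on the rhesus chip, and 10.27 and 10.34 with a testis mean of 6.73 on the human chip. Its other 3 source means lay between 3.10 and 3.31 on the rhesus and between 3.35 and 3.49 on the human chip. ITPR1, the inositol trisphosphate receptor, was at 11.40 in cortex and 9.57 in testis on the rhesus chip, and at 10.22 and 8.31 on the human chip.

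The remaining channels carry other ions or are opened by transmitters. Of 14 such genes 6 were higher and 1 was lower on the rhesus chip, and 10 of 21 were higher with none lower on the human chip, with medians of 0.86 and 0.58. GLRB, the anchoring subunit of glycine receptors, was higher by 3.56 and 3.21, and ASIC2, an acid-sensing channel, by 4.74 and 1.33. Without cortex array 3, the call of ASIC2 on the human chip was lost at 0.96. CHRNA3, the nicotinic subunit of autonomic ganglia, was at 3.13 in cortex and 9.86 in thymus on the rhesus chip, where it was called lower (-2.31), and was not called on the human chip (-0.97, adjusted p = 0.00197, limma), where it passed at -1.30 without pancreas and at -1.05 without cortex array 4.

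Receptors coupled to G proteins relay transmitters more slowly than channels do. Of the transmitter receptors of this kind, 8 of 18 were higher in cortex on the rhesus and 10 of 28 on the human chip, none were lower, and the medians were 0.78 and 0.18. The serotonin receptor HTR2A differed by 4.37 ± 0.10 and 4.37 ± 0.11. Its cortex arrays read 7.84 and 7.73 on the rhesus and 7.85 and 7.69 on the human chip. Fibroblasts came next at 6.26 and 6.30, and the other 3 source means stayed at 2.52 or below on the rhesus chip and 2.48 or below on the human chip. CHRM3, a muscarinic acetylcholine receptor that also drives secretion in exocrine glands, was at 8.68 in cortex and 8.25 in pancreas on the rhesus chip and at 10.49 and 9.25 on the human chip, and cortex passed the test against pancreas on the human chip only. ADRA1A, an adrenergic receptor, was higher by 2.68 and 4.45, but with the mean of all its probe sets both calls were lost, at 0.80 and 0.88. On the human chip alone the list also held the metabotropic GABA receptor GABBR2, at 11.98 and 11.91 in cortex against 3.05 to 4.33 elsewhere, the beta adrenergic receptor ADRB1 (4.86) and the dopamine receptor DRD1 (2.73). Other receptors known from brain lay at the floor in cortex as well as elsewhere. HTR1B averaged 2.82 and 2.29 in cortex, DRD2 2.94 and 2.70, and DRD4 2.30 and 1.87, with no other array of these genes above 3.18, and these levels do not show that the transcripts were absent.

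Among neuropeptide receptors 7 of 20 on the rhesus and 6 of 24 on the human chip were higher and none lower, with medians of 0.63 and 0.02. The cholecystokinin receptor CCKBR (4.13 and 1.74), the neuropeptide Y receptor NPY5R (3.37 and 2.51) and the relaxin receptor RXFP1 (5.15 and 3.28) were higher on both array types, although the human call of CCKBR was lost at 0.85 with the mean of all probe sets.

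Peptides are stored in dense core granules together with granins. Of these genes 10 of 12 were higher and 1 was lower on the rhesus chip and 19 of 22 were higher on the human chip, with medians of 5.34 and 3.08. Secretogranin II, SCG2, read 11.35 and 11.32 in cortex against 3.11 to 8.54 (median 3.68) on the rhesus chip and 9.90 and 9.88 against 3.0 to 6.55 (median 3.07) on the human chip. The groups did not overlap, and pancreas, which packs hormones into granules of the same kind, came next at 8.27 and 5.96. CHGB, another granin, was likewise next highest in pancreas, at 7.72 and 5.14 against 11.78 and 9.31 in cortex. Of the interneuron peptides, NPY was higher in cortex by 5.58 and 4.66 and VIP by 4.04 and 3.51. CCK differed by 6.98 and TAC1 by 4.74 on the human chip, which alone held them. Somatostatin, SST, averaged 10.42 in cortex but 11.74 in pancreas, whose delta cells make it, and 8.51 in fibroblasts on the human chip. PENK, which encodes the enkephalin precursor, was at 12.08 in cortex and 12.57 in testis on the rhesus chip.

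Growth factor and guidance genes steer the growth and survival of neurons. On the rhesus chip 17 of 26 were higher and 2 lower, and on the human chip 18 of 29 were higher and 3 lower, with medians of 2.68 and 2.04. EPHA4, an ephrin receptor of axon guidance, read 10.20 and 10.26 against 2.82 to 3.20 (median 2.94) on the rhesus chip and 11.27 and 11.38 against 2.83 to 5.17 (median 3.11) on the human chip. That is a difference of 7.25 ± 0.067 and 7.76 ± 0.059 with no overlap. NRG3, a neuregulin, differed by 6.27 and 4.71, and the neurotrophin receptor NTRK3 by 4.45 and 5.27. FGF12, FGF13 and FGF14, intracellular factors that bind sodium channels, differed by 4.96, 4.94 and 6.38 on the rhesus chip and by 4.67, 4.53 and 4.54 on the human chip. BDNF, the brain-derived neurotrophic factor, was called higher (2.53 and 3.75; 0.80 and not called on the rhesus chip with the mean of all its probe sets) but averaged more in fibroblasts, 8.31 and 9.20, than in cortex, 6.63 and 8.02. NRP1, a receptor for semaphorins and VEGF, was lower in cortex, at -2.08 and -1.42, the latter -0.53 and not called with the mean of all its probe sets.

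Calcium and second messengers carry signals inside the cell. Of the genes of this list, 36 of 39 were higher on the rhesus and 45 of 50 on the human chip, none were lower, and the medians were 4.16 and 3.85. RGS4, which switches off G protein signals and also marks layers of cortical neurons, read 13.95 and 13.85 in cortex on the rhesus chip and 11.80 and 11.97 on the human chip. The other arrays read 3.27 to 7.45 (median 3.66) and 2.91 to 3.46 (median 3.02). Its differences, 9.42 ± 0.074 (adjusted p = 1.69e-09, limma) and 8.80 ± 0.065 (adjusted p = 5.23e-09), were the largest of the list of cortical layer genes on both array types. The phosphatase subunits PPP2R2B (7.49 and 7.31) and PPP2R2C (7.40 and 6.22) and the calcium sensor NCALD (7.02 and 5.62) were higher too. A pair of its kinases was also high in thymus. CAMK4 averaged 10.19 in cortex and 12.18 in thymus on the rhesus chip, and 6.69 and 9.12 on the human chip, so its call came from the other 3 sources. PRKCB was 11.89 and 10.24 on the rhesus chip and 10.90 and 9.84 on the human chip, higher in cortex than in thymus on both. The G protein GNAO1 and adenylyl cyclase ADCY1 were called on 1 array type each, at 9.64 and 0.71 and at -0.15 and 8.06 on the rhesus and human chips, GNAO1 passing on the human chip at 3.37 with the mean of all its probe sets and at 1.0 without pancreas.

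Transporters and pumps keep the ion gradients and clear transmitters. Of 23 listed genes 21 were higher on the rhesus chip and of 32 genes 24 on the human chip, none were lower, and the medians were 3.68 and 3.81. SLC12A5, the potassium chloride cotransporter that keeps GABA inhibitory, read 12.08 and 12.03 against 2.48 to 5.02 (median 2.57) on the rhesus chip and 11.49 and 11.50 against 2.62 to 3.94 (median 2.76) on the human chip. No other array overlapped cortex, and the differences were 8.91 ± 0.06 and 8.54 ± 0.11. ATP1B1, a subunit of the sodium pump, averaged 14.44 in cortex and 13.54 in testis on the rhesus chip and 14.48 and 12.56 on the human chip. The proton pump subunit ATP6V1G2, on the human chip only, differed by 8.59. SLC4A4, a bicarbonate transporter of astrocytes and pancreatic ducts, was called higher but averaged more in pancreas, 10.34 and 12.60, than in cortex, 8.05 and 10.11. SLC4A10, a neuronal relative, differed by 7.38 on the rhesus chip and by -0.039 on the human chip, where the cortex arrays read 2.79 and 2.83 and the others 2.75 to 3.0.

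**Figure D2:**
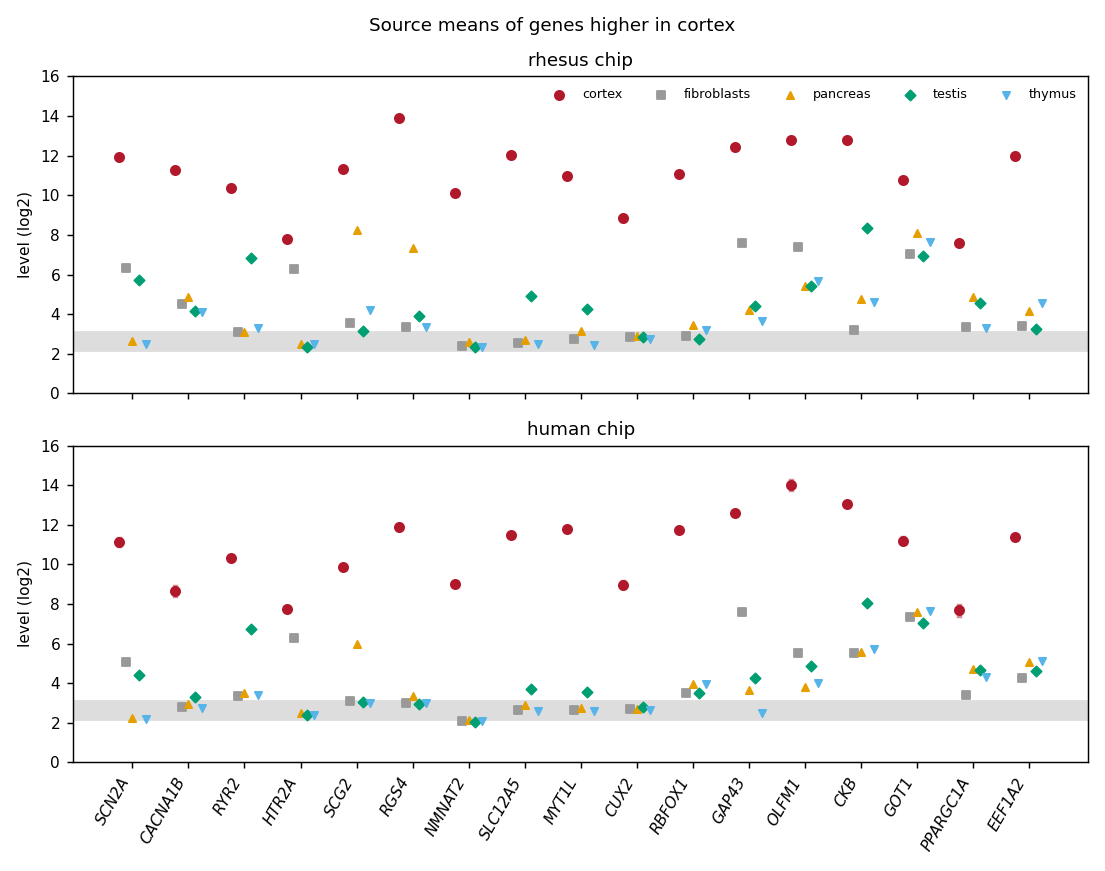
Level (log2) of 17 genes described as higher in cortex, rhesus arrays above and human arrays below, with 1 symbol per source for the mean of its 2 arrays and a red bar joining both cortex arrays. Grey shading spans the unspiked controls, and cortex lies above every other source for each gene shown, with testis, pancreas or fibroblasts next for RYR2, SCG2 and HTR2A.

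Transcription factors of cortical neurons were higher for 17 of 26 genes on the rhesus and 26 of 34 on the human chip and lower for 2 and 1, with medians of 1.62 and 2.48. MYT1L, which represses non-neuronal programs in neurons, read 10.96 and 11.01 against 2.42 to 4.42 (median 3.07) on the rhesus chip and 11.72 and 11.81 against 2.58 to 3.70 (median 2.69) on the human chip, with no overlap. Its differences of 7.83 ± 0.14 and 8.89 ± 0.076 led the list on both array types. CUX2, of the upper layers (6.01 and 6.27), RORB, of layer 4 (5.90 and 6.25), and FEZF2, of the deep layers (4.42 and 4.38), were all above each other source. NEUROD6, of excitatory neurons (6.38 and 5.31), and MEF2C (4.83 and 5.09) were too. Some listed factors were as high in another source. BCL11A averaged 9.31 and 10.41 in cortex and 9.77 and 11.01 in thymus, and EMX2 averaged 6.70 and 6.53 in cortex and 8.34 and 8.39 in fibroblasts. SOX4, a factor of immature and dividing cells, ran against its list. Its cortex arrays read 7.25 and 7.49 on the rhesus and 7.35 and 7.42 on the human chip, below all other arrays, which read 8.93 to 11.30 and 8.22 to 11.27. CUX1 (-0.11 and -0.74), FOXP1 (-0.11 and 0.011) and SATB1 (-0.57 and 0.59) were not called on either array type, but without pancreas CUX1 was lower on the human chip, at -1.34.

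Interneuron factors were higher for 5 of 7 and 4 of 9 genes, with medians of 2.78 and 0.97. DLX1 averaged 8.54 and 8.68 in cortex and 6.33 and 6.66 in fibroblasts, while the other 3 source means lay at 2.61 or below and 3.0 or below. LHX6, of interneurons from the medial ganglionic eminence, was higher by 3.95 and 2.06. Glial factors were higher for 5 of 10 and 10 of 15, with medians of 1.69 and 1.97. SOX2, kept on in astrocytes, differed by 6.28 and 6.86 and was next highest in thymus at 6.69 and 6.05. HEY1, a Notch target, differed by 4.19 and 4.08, and ID4, an inhibitor of bHLH factors, by 3.06 and 3.19.

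Activity-regulated genes are switched on within minutes by firing or by injury, and most of them were not called. On the rhesus chip 5 of 14 were higher and 1 lower, and on the human chip 5 of 20 were higher and 2 lower, with medians of 0.30 and 0.38. FOS differed by 0.78 and 0.39 and JUNB by 0.60 and 0.37, under the threshold of 1 on both array types. HOMER1, a scaffold of the synapse, was higher by 4.45 and 5.94, and EGR4, a zinc finger factor, by 2.64 and 4.68. ATF3, a stress-induced factor, was lower, at -1.11 and -1.04, but it was called on neither chip with levels set by the spiked controls, at -0.90 and -0.80, or with the mean of all its probe sets, at 0.11 and -0.38.

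RNA-binding proteins of neurons were higher for 15 of 18 genes on the rhesus and 18 of 22 on the human chip and lower for 1 and 0, with medians of 3.02 and 2.88. RBFOX1, a splicing factor, read 11.12 and 11.06 against 2.73 to 3.78 (median 3.02) on the rhesus chip and 11.73 and 11.78 against 3.46 to 4.21 (median 3.63) on the human chip, with differences of 8.02 ± 0.15 and 8.02 ± 0.13. ELAVL4, which stabilizes neuronal messages, differed by 6.45 and 7.46, and CELF4 by 5.97 and 5.91. Testis held 2 of these genes as well. ELAVL2 averaged 10.18 and 10.86 in cortex against 9.10 and 9.99 in testis, and CPEB1, which also governs translation in germ cells, 7.91 and 8.13 against 8.67 and 9.04.

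A counterpart list held regulators that neurons turn down or that belong to other tissues. It was lower in cortex for 14 of 16 genes on the rhesus and 14 of 19 on the human chip, with medians of -2.54 and -1.61. PTBP1, the splicing repressor that blocks neuronal exons, read 7.77 and 7.68 in cortex and 10.05 to 11.82 (median 10.96) elsewhere on the rhesus chip, and 5.24 and 5.01 and 7.50 to 10.06 (median 9.20) on the human chip. Cortex lay below all other arrays. The differences from the mean of the other sources were -3.24 ± 0.057 (adjusted p = 4.77e-08, limma) and -3.88 ± 0.10 (adjusted p = 1.24e-06). Its neuronal relative PTBP2 was higher, by 1.15 and 1.34, but only with pancreas among the sources, at 0.50 and 0.73 without it, and on the human chip the call was also lost without cortex array 4 (adjusted p = 0.0784, limma). REST, the repressor of neuronal genes, was on the human chip only and read 4.75 and 4.07 in cortex against 6.90 to 10.05 (median 9.35), a difference of -4.55 ± 0.25. The histone deacetylase HDAC1 (-4.53 and -3.30) and MYC (-4.75 and -3.78), a driver of cell growth, were below each other source on both array types. MYC averaged 3.19 and 4.27 in cortex and no less than 6.70 and 7.31 on any other array. TWIST1, a factor of mesenchyme, was the exception, higher by 1.70 and 2.17, with fibroblasts above cortex at 9.01 and 9.57 against 7.56 and 8.15.

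**Figure D3:**
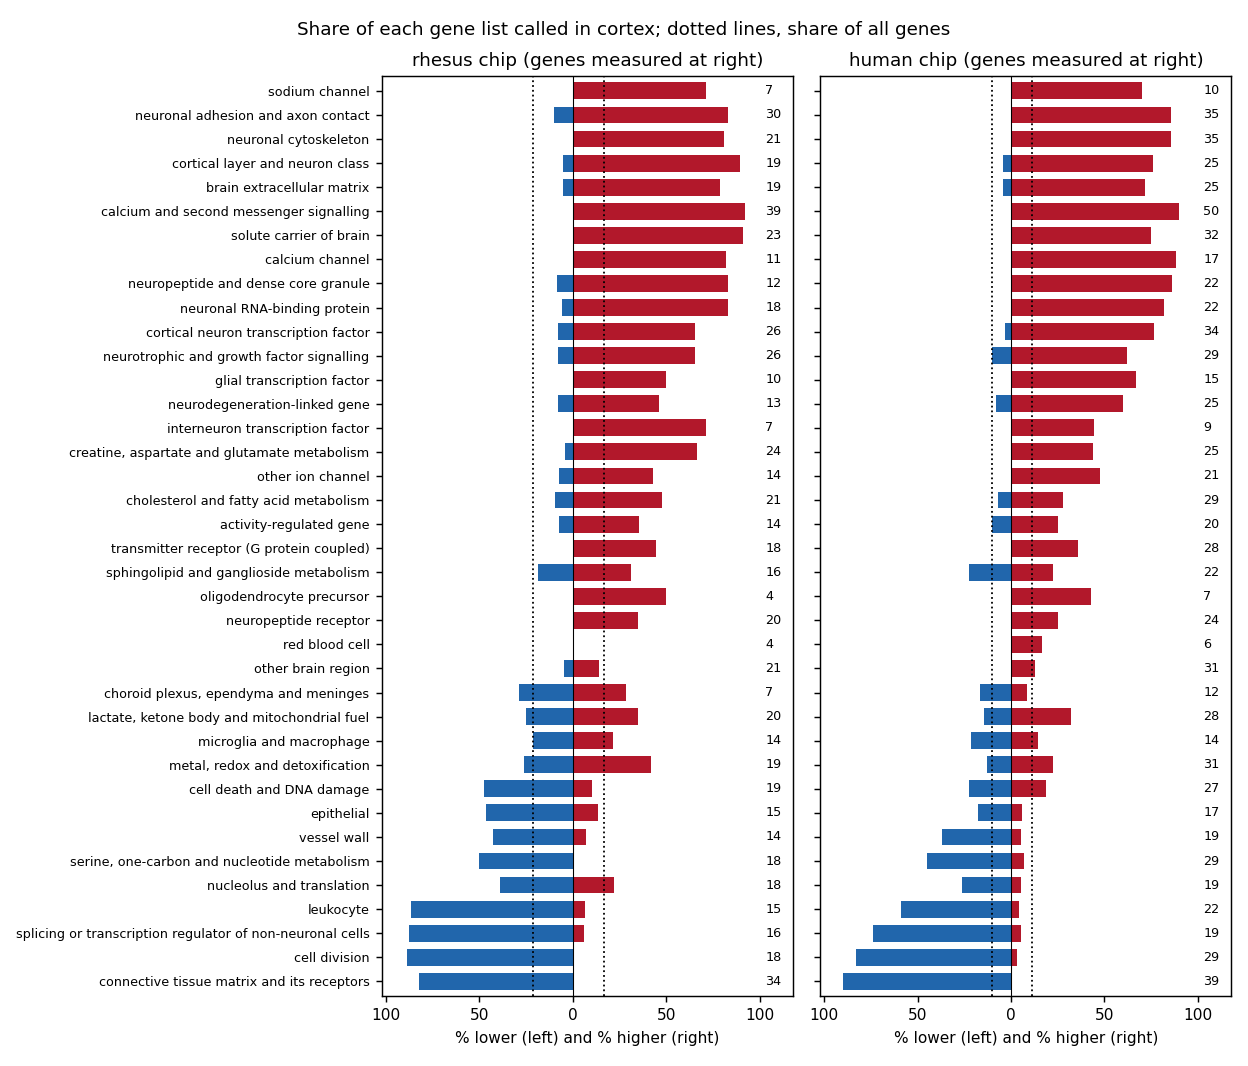
Share of the measured genes of each list called higher (red, to the right) and lower (blue, to the left) in cortex, in percent, on the rhesus (left) and human arrays (right), with the number of measured genes at the right edge. Dotted lines mark the shares over all genes, 16.6% higher and 21.1% lower on the rhesus and 11.0% and 9.99% on the human chip.

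The cytoskeleton and surface of axons and dendrites were read next. Of the cytoskeletal genes 17 of 21 and 30 of 35 were higher with none lower, at medians of 4.47 and 4.56. GAP43, a protein of growth cones, read 12.45 and 12.42 on the rhesus and 12.60 and 12.60 on the human cortex arrays, with fibroblasts next at 7.61 and 7.61 and differences of 7.46 and 8.11. STMN2, a regulator of microtubules, differed by 8.65 and 9.71, and ANK2, an ankyrin that ties channels to spectrin, by 5.79 and 5.99. NEFH, the heavy neurofilament, averaged more in testis, 9.49 and 9.93, than in cortex, 8.68 and 8.79. Adhesion genes were higher for 25 of 30 and 30 of 35, with 3 and 0 lower and medians of 4.53 and 4.59. CNTN1, a contactin of axons, differed by 7.06 and 7.08, and NTM, of the same superfamily of immunoglobulin-like proteins, by 4.60 and 4.59, although fibroblasts, at 9.91 and 10.12, were close to cortex at 10.47 and 9.85.

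Genes of cortical layers and neuron classes were higher for 17 of 19 on the rhesus and 19 of 25 on the human chip, at medians of 4.87 and 4.11. NRN1, which promotes neurite growth, differed by 9.19 and 8.32, the protocadherin PCDH8 by 8.38 and 7.42, and PVALB, the calcium buffer of fast-spiking interneurons, by 4.36 and 4.81. CCN2, a gene of the deepest cortical layer and also of connective tissue, was lower, by -1.73 and -1.36.

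The matrix of the brain and that of connective tissue were listed apart. Genes of the brain matrix were higher for 15 of 19 on the rhesus and 18 of 25 on the human chip and lower for 1 and 1, with medians of 4.49 and 3.91. OLFM1, a secreted olfactomedin, read 12.82 and 12.79 against 5.34 to 7.49 (median 5.56) on the rhesus chip and 14.22 and 13.78 against 3.75 to 6.03 (median 4.44) on the human chip. Cortex stood clear of all other arrays on both types. CSPG5, a neural proteoglycan, differed by 6.66 and 6.73, and PTPRZ1, a phosphatase that is also a matrix proteoglycan, by 6.49 and 4.88. LGI1, secreted at synapses and mutated in a familial epilepsy, averaged 9.09 and 9.58 in cortex and 7.96 and 8.0 in fibroblasts. TNC, tenascin C, which is also made by fibroblasts, was lower, at -2.34 and -2.37, its human call lost at -0.90 with the mean of all probe sets.

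The matrix of connective tissue was lower in cortex for 28 of 34 genes on the rhesus and 35 of 39 on the human chip, higher for 0 on both, and had medians of -3.61 and -3.04. It was below each other source for 18 and 20 of them. COL1A1, a chain of type I collagen, read 2.31 and 2.29 in cortex and 7.83 to 13.93 (median 10.86) elsewhere on the rhesus chip and 3.88 and 4.12 and 10.56 to 13.76 (median 13.08) on the human chip. Cortex was the lowest source, with differences of -8.58 ± 0.047 (adjusted p = 4.4e-10, limma) and -8.63 ± 0.14 (adjusted p = 1.29e-07). The small proteoglycan DCN was still at 7.89 and 7.79 in cortex, well above the floor, but lower by -4.57 and -4.90. ITGB1, the integrin chain that grips this matrix, differed by -4.09 and -3.04, TGFBI by -4.76 and -4.45, and the calcium-binding proteins S100A11 and ANXA2 by -5.02 and -3.96 on the rhesus and -3.88 and -2.95 on the human chip. With the mean of all its probe sets ANXA2 turned to 0.29 on the rhesus chip. TPM1, a tropomyosin, was not called on either type, at 0.015 and 0.25.

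Metabolism was read in 6 lists. Genes of creatine, aspartate and glutamate were higher for 16 of 24 on the rhesus and 11 of 25 on the human chip and lower for 1 and 0, with medians of 1.95 and 0.67. CKB, the brain creatine kinase that buffers ATP, read 12.76 and 12.78 in cortex against 3.16 to 8.39 (median 4.68) on the rhesus chip and 12.97 and 13.08 against 5.43 to 8.26 (median 5.72) on the human chip. Testis came next and did not overlap cortex, and the differences were 7.53 ± 0.05 and 6.81 ± 0.13. The enzymes that make creatine were highest in pancreas. GATM averaged 10.20 and 8.19 in cortex and 13.80 and 12.33 in pancreas, and GAMT 7.06 and 5.61 against 11.03 and 9.04, and neither was called. Against the other 3 sources without pancreas GATM was higher in cortex, by 1.98 and 1.63. Both cytosolic enzymes of the malate-aspartate shuttle were higher, GOT1 by 3.36 and 3.80 and MDH1 by 2.69 and 3.02. GLUL, glutamine synthetase of astrocytes, was higher by 2.13 and 2.16, and ABAT, which breaks down GABA, by 4.03 and 4.67.

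Brain makes and keeps its own cholesterol. Of the cholesterol and fatty acid list 10 of 21 and 8 of 29 were higher and 2 and 2 lower, at medians of 0.81 and 0.51. CYP46A1, which turns brain cholesterol into a form that can leave the brain, read 10.59 and 10.56 against 2.88 to 4.21 on the rhesus chip and 8.05 and 8.01 against 2.23 to 2.29 on the human chip. MGLL, which degrades the endocannabinoid 2-arachidonoylglycerol, differed by 4.12 and 3.92, and ACSL6, which activates long fatty acids, by 4.67 and 4.06. INSIG1, a brake on cholesterol synthesis, was lower, at -1.86 and -1.45. In the sphingolipid list 5 of 16 and 5 of 22 were higher and 3 and 5 lower, at medians of 0.35 and 0.15, and UGT8, which makes the galactolipids of myelin, was higher by 4.72 and 4.81, while HEXA, a lysosomal enzyme that degrades gangliosides, was lower, at -1.41 and -1.76. With the mean of all its probe sets HEXA was called on neither chip, at -0.42 and -0.45.

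Serine, one-carbon and nucleotide genes feed DNA synthesis, among other uses. Of these 9 of 18 were lower and 0 higher on the rhesus chip, and 13 of 29 lower and 2 higher on the human chip, at medians of -1.05 and -0.70. TYMS, which makes thymidylate, read 3.56 and 3.85 against 4.69 to 10.78 (median 8.66) on the rhesus chip and 3.36 and 3.38 against 3.42 to 10.03 (median 7.88) on the human chip. Pancreas came closest on the human chip, at 3.45, and the test of cortex against pancreas was not passed there. The higher ones on the human chip were PSAT1, of serine synthesis (1.34), and GDA, guanine deaminase (3.14). IMPDH2, of guanine nucleotide synthesis, was below each other source on both array types, at -2.13 and -2.18, and MTHFD2, a mitochondrial folate enzyme on the human chip only, at -4.04. The cell division list was lower for 16 of 18 and 24 of 29, at medians of -2.85 and -2.55, with TOP2A, a topoisomerase of dividing cells, at -6.36 and -5.51. CCND2, a cyclin, was the exception there, at 1.47 on the human chip, but at 0.68 and not called with the mean of all probe sets.

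Neurons burn lactate, ketone bodies and glucose in mitochondria. On the rhesus chip 7 of 20 genes of such fuels were higher and 5 lower, and 9 of 28 higher and 4 lower on the human chip, with medians of -0.037 and -0.091. PPARGC1A, a coactivator of mitochondrial genes, read 7.60 and 7.62 against 3.16 to 5.02 on the rhesus and 7.92 and 7.43 against 3.22 to 4.84 on the human chip, without overlap. CPT1C, the brain member of the carnitine palmitoyltransferases, was higher by 2.58 and 2.93, whereas CPT1A, the liver type, was lower on the rhesus chip (-2.50) and not called on the human chip (-0.28). The myo-inositol transporter SLC2A13 was higher by 4.37 and 3.94, and the cytosolic isocitrate dehydrogenase IDH1 was lower, at -1.88 and -1.10, its human call lost with levels set by the spiked controls (-0.85) and with the mean of its probe sets (-0.55).

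Metal and redox genes were higher for 8 of 19 and 7 of 31 and lower for 5 and 4, at medians of 0.20 and -0.21. MT3, the brain metallothionein, differed by 6.86 and 3.21, and SLC30A3, which loads zinc into synaptic vesicles, by 4.85 and 3.15. The widely used MT2A was not called, at 0.20 and -0.14. Catalase, CAT, was lower, at -2.53 and -3.51, and the iron exporter SLC40A1 at -3.45 and -1.85. On the human chip the call of SLC40A1 was lost without either cortex array (adjusted p = 0.154 and 0.0622, limma).

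Elongation factors deliver transfer RNA to the ribosome. EEF1A2, the elongation factor of neurons and muscle, read 11.94 and 12.08 against 3.19 to 4.64 (median 3.85) on the rhesus chip and 11.45 and 11.34 against 4.09 to 5.34 (median 4.83) on the human chip, with differences of 8.16 ± 0.13 and 6.63 ± 0.20. EEF1A1, its paralog in most cells, was on the human chip only and differed by -0.82, under the threshold. The nucleolus and translation list as a whole was higher for 4 of 18 and 1 of 19 and lower for 7 and 5, at medians of -0.62 and -0.70. Fibrillarin, FBL, a nucleolar methyltransferase, was lower, at -1.99 and -2.33, and nucleophosmin, NPM1, at -1.14 and -1.54, the rhesus call lost at -0.93 with levels set by the spiked controls.

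Genes of cell death and DNA damage were lower for 9 of 19 and 6 of 27 and higher for 2 and 5, at medians of -0.90 and -0.22. NMNAT2, the enzyme that keeps axons alive by making NAD, stood against this list. It read 10.06 and 10.19 in cortex and 2.32 to 2.73 elsewhere on the rhesus chip and 9.04 and 8.97 and 2.06 to 2.13 on the human chip, so that every other array was at the floor. The death effectors CASP8 (-1.83 and -1.0), CASP4 (-1.49 and -1.93) and BAX (-1.96 and -1.16) were lower on both array types, although the call of CASP8 on the human chip (adjusted p = 0.028, limma) was lost with a replicate block (adjusted p = 0.0522, limma) and without any 1 of 7 arrays, with an adjusted p of up to 0.148. Its human difference was -0.76 with levels set by the spiked controls and -0.43 with the mean of all its probe sets, and those of BAX with the spiked controls (-0.91) and of CASP4 with the mean of all its probe sets (-0.97) also fell short of the threshold. SARM1, which degrades NAD when an axon is cut and so opposes NMNAT2, was higher on the rhesus chip (3.31) and not called on the human chip (-0.067). Genes linked to neurodegeneration were higher for 6 of 13 and 15 of 25 and lower for 1 and 2, at medians of 0.52 and 1.70, with beta-synuclein, SNCB, at 8.41 and 6.75 and the ubiquitin hydrolase UCHL1 at 5.66 and 4.88, while the parkinsonism gene PARK7 was not called, at 0.52 and 0.64.

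**Figure D4:**
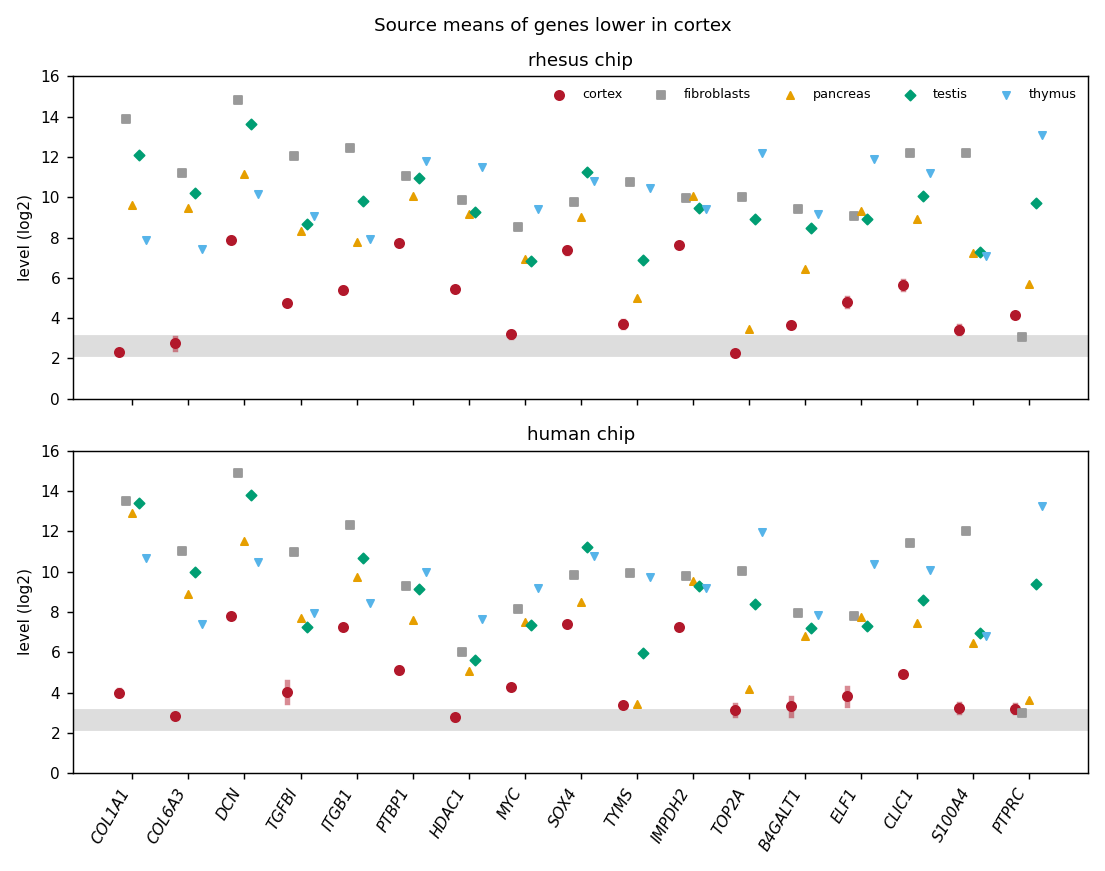
Level (log2) of 17 genes described as lower in cortex, drawn as in the plot of genes higher in cortex. Cortex is more than 1 below every other source for each gene except TYMS on the human chip, where pancreas is close to it, and PTPRC, where fibroblasts are below it.

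Presence and absence were also read by level, with no test. Genes at 6 or more on both cortex arrays and at 4 or less on all 8 other arrays were counted first. They numbered 258 of 14132 on the rhesus and 269 of 19775 on the human chip, and 91 of the 11956 genes on both. The reverse, at 4 or less in cortex and at 6 or more on every other array, held for 24 and 5 genes, and for 2 on both types. It asks for a high level on all 8 other arrays, while the first count asks for it on the 2 cortex arrays alone. The counts are therefore not like for like, and no other source was read in this way. The 2 genes on both types were COL6A3, a collagen chain, and B4GALT1, the common galactosyltransferase of the Golgi. COL6A3 read 3.01 and 2.48 in cortex on the rhesus and 2.83 and 2.84 on the human chip, and B4GALT1 3.75 and 3.61 and 3.74 and 2.88. On the other arrays B4GALT1 read 6.25 to 9.47 and 6.07 to 7.94. With the bright level set to 7 the genes dark in cortex only were 5 and 2, with 1 on both, and with the dark level set to 3.5 they were 9 and 4, with 1 on both. B4GALT1 met neither of these stricter levels, and the gene left on both types was COL6A3.

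Outside the lists, the genes furthest below each other source on both array types were chosen by their mean difference. CKS2, a partner of cyclin-dependent kinases, led at -7.88 and -6.90, followed by VAMP8, a SNARE of secretory and lysosomal granules, at -5.71 and -5.55. VAMP8 read 3.37 and 4.10 in cortex on the rhesus and 2.96 and 3.24 on the human chip, and at least 7.26 and 6.60 on the others. The 20 genes also held transcription and chromatin genes, ELF1 (-4.99 and -4.51), ELK3 (-4.75 and -4.31), ZNF217 (-5.13 and -4.68), BAZ1A (-4.78 and -4.81) and HMGB2 (-4.60 and -3.90). ELF1, an ETS factor, averaged 4.80 and 3.80 in cortex, and each of the other 8 arrays of a type was at 8.86 or more and 7.24 or more. The chloride channel protein CLIC1 (-4.95 and -4.49), the protease CTSH (-4.86 and -3.40), S100A4 (-5.0 and -4.84), COL6A1 (-5.70 and -3.79) and IGFBP4 (-5.18 and -4.75) were further members, and the remaining 8, RBPMS, DPT, NUCB2, B4GALT1, FBXO5, YBX3, ARHGAP18 and TMEM39A, lay between -5.90 and -3.44 over both array types. COL6A1 and TMEM39A were at -0.90 and -0.96 and not called on the human chip with the mean of all probe sets.

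At the other end, 20 unlisted genes were furthest above each other source on both types. The kinesin KIF5C led them. NELL2, a secreted neuronal protein, read 12.22 and 12.25 in cortex against 3.02 to 4.25 (median 3.38) on the rhesus chip and 12.74 and 12.32 against 2.60 to 4.96 (median 2.85) on the human chip, with differences of 8.73 ± 0.055 and 9.23 ± 0.11. VXN, a neurogenesis gene, differed by 8.87 and 7.34, AMER2, a regulator of Wnt signalling, by 8.0 and 8.08, and JPH3, which ties the endoplasmic reticulum to the plasma membrane, by 7.51 and 8.07. Of the others the small GTPase RAB6B was at 8.15 and 7.40, DIRAS2 at 7.51 and 7.90, and CHN1 at 7.62 and 7.27. MAPK10, the neuronal JNK kinase, was at 8.11 and 7.30, and ATL1, an atlastin that shapes the endoplasmic reticulum of axons, at 7.58 and 7.23. The rest were NRSN1, SYT4, ELMOD1, TAFA1, SYN2, GABRA4, GPM6B, DLG2, ADGRB3 and GABRA2, between 6.42 and 8.74.

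Markers of other cells that a cortex sample can hold were read next. Their part in the results above was not tested. Microglia and macrophage genes were higher for 3 of 14 and 2 of 14 and lower for 3 and 3. P2RY12, the purine receptor of resting microglia, differed by 4.28 and 3.91, while LYZ, lysozyme of phagocytes, was lower, at -2.80 and -2.27, its highest source being thymus. The mean level of that list was 5.45 in cortex and 4.12 to 5.74 in the other sources on the rhesus chip, and 3.96 and 3.53 to 4.56 on the human chip. Vessel wall genes were higher for 1 of 14 and 1 of 19 and lower for 6 and 7, and the endothelial PECAM1 was lower, at -1.70 and -1.73, its human call lost at -0.51 with the mean of all probe sets. Leukocyte genes were lower for 13 of 15 and 13 of 22, with medians of -2.36 and -1.32, and 0 and 0 of them were below each source. PTPRC, the common leukocyte antigen, averaged 4.15 and 3.20 in cortex, 3.08 and 2.97 in fibroblasts and 13.10 and 13.28 in thymus. CORO1A, an actin regulator, was called higher, at 1.94 and 2.63, although thymus averaged 10.14 and 9.98 against 7.39 and 7.33 in cortex. Epithelial genes were lower for 7 of 15 and 3 of 17 and higher for 2 and 1, at medians of -0.99 and -0.38. Of the precursor cell list for oligodendrocytes 2 of 4 and 3 of 7 were higher. Red blood cell genes were higher for 0 of 4 and 1 of 6, the latter HBB at 1.04, with pancreas at 9.53 and cortex at 7.95, a call lost at 0.95 without cortex array 3 and at 0.57 with the mean of all probe sets.

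Genes of other brain regions (striatum, thalamus, hypothalamus, cerebellum and brain stem) were listed as well. Of these 3 of 21 on the rhesus and 4 of 31 on the human chip were higher and 1 and 0 lower, with medians of -0.087 and -0.015. The higher ones were ZIC2 (3.64 and 3.35), PPP1R1B (1.37 and 1.71) and PDE10A (2.86 and 2.06; 0.68 and not called on the human chip with the mean of all probe sets) on both types, and ZIC1 (3.95) on the human chip, which alone held it. PPP1R1B, a phosphatase inhibitor of striatal neurons, averaged 7.0 in cortex and 7.26 in thymus on the human chip, where its call was lost without cortex array 3 (adjusted p = 0.0897, limma). The tyrosine hydroxylase gene TH was at 2.19 and 2.19 in cortex, the orexin gene HCRT at 2.29 and 2.17, and the serotonin enzyme gene TPH2 at 2.02 and 2.26, all within the range of the unspiked controls or below it. Choroid plexus, ependyma and meninges genes were higher for 2 of 7 and 1 of 12 and lower for 2 and 2, at medians of -0.13 and -0.025. PTGDS, a prostaglandin synthase of meninges and glia, differed by 5.49 on the human chip, and TTR, the defining gene of choroid plexus, was lower, at -1.11, with 5.88 in cortex and 12.39 in pancreas. Without the pancreas arrays it turned to 0.69, and without cortex array 4 the call was lost at -0.98.

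The array types were compared gene by gene. The cortex difference itself differed between them for 2432 of 11956 genes (20.3%), as a contrast of the human minus the rhesus difference in a limma fit of all 20 arrays. Called opposite ways were 60 genes, 30 higher on the rhesus and lower on the human chip and 30 the reverse. In the first set STAG1, a cohesin subunit, differed by 8.11 and -2.21, the kinase STK3 by 7.84 and -2.17, EPB41L4B by 5.66 and -2.51, DNASE1L3 by 6.03 and -1.93, and COL18A1 by 6.23 and -1.45. The human call of COL18A1 was lost without cortex array 3 (adjusted p = 0.163, limma) and without pancreas (adjusted p = 0.0742). In the other set were the adhesion genes PCDH7 (-1.63 and 6.21), NCAM1 (-1.17 and 5.60), IGSF8 (-3.48 and 3.15) and CNTNAP2 (-1.02 and 4.90) together with ENO2 (-2.22 and 6.40). ENO2 had the largest human minus rhesus value of that set, 8.62. For such genes probe sets that carry 1 symbol read the same RNA sources in opposite directions, and what differs between the probes was not tested. The human chip was designed for the human genome, and the paper reports that single-base mismatches to rhesus transcripts lowered probe signal. Whether such mismatches enter these differences, or the readings at the floor on the human chip alone, was not tested. With the mean of all probe sets NCAM1 and CNTNAP2 turned to 3.13 and 3.18 on the rhesus chip, where PCDH7 was no longer called (-0.86). On the human chip EPB41L4B (-0.21), DNASE1L3 (-0.98) and COL18A1 (-0.79) were then no longer called. The rhesus probe set read for NCAM1 was 1 of 10, of which 7 were called higher and 1 lower, and that for CNTNAP2 was 1 of 5, of which 3 were higher and 1 lower.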

How the data were processed

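RNA of 5 rhesus macaque sources was labelled from 5 µg of total RNA, extracted with Trizol, and hybridised to 2 arrays of each of 2 Affymetrix types. The deposited log2 values, 1 per probe set, are named as RMA output in the submitters' processing notes, with no version. Array medians lay between 2.90 and 3.53, lower than RMA values usually lie, so the background correction is uncertain and, with it, the floor and the size of large differences. The authors' published comparisons used probe intensities, which are other values.

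Each array type was analysed by itself with limma 3.58.1 in R 4.3.3 (lmFit, eBayes, source as the only factor) over 52707 rhesus and 54613 human probe sets, controls left out. Genes with 1 symbol in the platform annotation were read from their brightest probe set, and Benjamini-Hochberg adjustment ran over all probe sets. Array types were compared by a contrast over all 20 arrays. Other settings were other scalings, a filter on dim probe sets, other minimum differences, an ordinary analysis of variance, a replicate block, the mean of all probe sets, and fits without pancreas or without 1 array. The methods were tested on simulated data.

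The genes and lists were chosen with earlier results of these data known. The text names genes of 990 listed symbols (667 on the rhesus and 907 on the human chip). Off the lists it names the 20 genes furthest above and the 20 furthest below each other source on both array types. Of the 91 genes bright in cortex only on both types, the unlisted ones with the highest cortex level were chosen. All of these are among the 20 furthest above. The 2 genes dark in cortex only on both types and the 5 per direction called opposite ways are named too.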

Additional observations from a re-analysis of the deposited data

Results flagged for a closer look

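Among listed genes, 9 were called opposite ways on the array types and also differed between them in the contrast of the human minus the rhesus difference (limma over all 20 arrays). The human minus rhesus values were 6.77 for NCAM1 and 5.93 for CNTNAP2, both adhesion genes, 2.20 for TENM1, a teneurin of synaptic contacts, 2.22 for BCL11B, a factor of deep-layer neurons and T cells, 2.27 for CRH, the corticotropin-releasing hormone, and 2.90 for GLUD1, glutamate dehydrogenase. They were -6.41 for KRT18, a keratin, -5.14 for EEF1D, an elongation factor, and -2.53 for PYGL, the liver glycogen phosphorylase. KRT18 differed by 3.02 on the rhesus and -3.39 on the human chip, and its rhesus cortex arrays read 10.09 and 10.15 against 5.43 to 7.98 on the others. EEF1D differed by 2.40 and -2.74. BCL11B, CRH and TENM1 passed the minimum difference of 1 by less than 0.3 on each side (-1.20 and 1.03, -1.27 and 1.0, -1.03 and 1.17). On the human chip BCL11B passed no longer without cortex array 3 (1.05, by its adjusted p), cortex array 4 (0.999), fibroblast array 4 (0.92) or pancreas array 4 (0.98). CRH stood at 0.99 without fibroblast array 3, CNTNAP2 at -0.93 without cortex array 1, PYGL at -0.72 without cortex array 3, and TENM1 at -0.99 without thymus array 1, and each lost its call on 1 array type. The call of CRH was also lost without cortex array 4, pancreas array 3, testis array 4 or thymus array 4, and that of CNTNAP2 without pancreas array 2.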

How the results depend on the processing

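The counts of genes stayed within 1.5 times under quantile normalization, median subtraction, a filter on dim probe sets and an ordinary analysis of variance. Leaving out each array in turn gave, on the rhesus chip, 2309 to 2361 higher and 2927 to 3000 lower genes, with 1271 to 1316 above and 663 to 696 below each source. On the human chip it gave 2120 to 2178 higher and 1852 to 1980 lower, with 1218 to 1256 above and 386 to 416 below each. On both types it gave 1179 to 1224 higher, 1145 to 1237 lower, 632 to 652 above each and 208 to 222 below each.

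Without a minimum difference the higher genes numbered 3643 on the rhesus chip and 1893 on both types, the lower ones 5833, 4181 and 2555 on the rhesus chip, the human chip and both, and those below each 1526, 901 and 491. With a minimum of 2 the same 3 readings gave 1408, 1249 and 675 higher, 1060, 595 and 365 lower, 788, 784 and 392 above each, and 187, 94 and 48 below each. Spiked controls left 338, 144 and 83 below each, and leaving out pancreas, which removes 1 of the tests, 1236, 823 and 454. The mean of all probe sets gave 1257 lower on the human chip and 799 on both, and 225 and 109 below each. Genes dark in cortex only were 5, 2 and 1 with bright at 7 or more, and 9 on the rhesus chip and 1 on both with dark at 3.5 or less. The causes were not tested.

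Of the named genes, 8 readings reversed. With the mean of all probe sets they were, on the rhesus chip, ANXA2 at 0.29, ATF3 at 0.11, CNTNAP2 at 3.18, NCAM1 at 3.13 and PYGL at -1.45, and on the human chip BCL11B at -0.065. Without pancreas they were, on the human chip, BCL11B at -0.039 and TTR at 0.69. A call was lost with no change of direction for 24 readings with the mean of all probe sets, 12 with the spiked controls, 5 with quantile normalization, 4 without pancreas, 51 at a minimum of 2, and 1 each (CASP8, human chip) with the median, the ordinary analysis of variance and the replicate block. With the mean of all probe sets these were, on the rhesus chip, ADRA1A at 0.80, BDNF at 0.80, GLUD1 at -0.96, HEXA at -0.42 and PCDH7 at -0.86 and, on the human chip, ADRA1A at 0.88, ATF3 at -0.38, CASP4 at -0.97, CASP8 at -0.43, CCKBR at 0.85, CCND2 at 0.68, COL18A1 at -0.79, COL6A1 at -0.90, DNASE1L3 at -0.98, EPB41L4B at -0.21, HBB at 0.57, HEXA at -0.45, IDH1 at -0.55, NRP1 at -0.53, PDE10A at 0.68, PECAM1 at -0.51, TENM1 at 0.44, TMEM39A at -0.96 and TNC at -0.90. With the spiked controls they were ATF3 at -0.90, BCL11B at -0.99, CNTNAP2 at -0.81, NCAM1 at -0.95, NPM1 at -0.93 and TENM1 at -0.82 on the rhesus and ATF3 at -0.80, BAX at -0.91, CASP8 at -0.76, IDH1 at -0.85, PYGL at -0.83 and TTR at -0.86 on the human chip. With quantile normalization they were TENM1 at -0.93 on the rhesus and BCL11B at 0.99, CASP8 at -0.96, CRH at 0.85 and HBB at 0.84 on the human chip, and without pancreas PTBP2 at 0.50 on the rhesus and COL18A1 at -1.13, PTBP2 at 0.73 and TENM1 at 0.46 on the human chip. Without 1 array a call was lost 28 times, for CNTNAP2 and TENM1 on the rhesus and ASIC2, BCL11B, CASP8, COL18A1, CRH, HBB, PPP1R1B, PTBP2, PYGL, SLC40A1 and TTR on the human chip. A call was gained on the human chip by CHRNA3 (-1.25), GNAO1 and MBP with the mean of all probe sets, by GAMT (-1.13) with quantile normalization, by CHRNA3, CUX1, GNAO1, MBP and, on both chips, GATM without pancreas, and by CHRNA3 4 times without 1 array.

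Counts called within the lists moved by more than 1.5 times in 149 cases and stayed within it in 1411 under the other settings, and did so in 25 and 1535 cases without 1 array. The spiked controls moved the median of all genes by 0.21 and 0.24, and the share of calls that were higher to 52.5% and 64.1%. On the human chip that share was 47.4% with quantile normalization and 45.8% without pancreas.

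The replicate numbers did not pair the samples, as deviations of arrays with 1 number correlated between -0.025 and 0.010 on the rhesus and -0.034 and 0.018 on the human chip over pairs of sources. With a replicate block 2346 and 2173 genes were higher and 2983 and 1962 lower. With 2 arrays per source and levels near the unspiked controls, genes at the floor on both sides could not be told apart.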
